A study of Mus musculus with 8 samples.

Results

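The 7 genes described here are regulators of hair follicle stem cells and of the outer root sheath, the epithelial layer that wraps the growing follicle, measured in RNA of sorted hair matrix keratinocytes. They were Trp63, Sox9, Lhx2, Tcf7l1, Nfatc1, Lgr5 and Lgr6, chosen by gene name because each is a known marker or regulator of these compartments, and all 7 of 7 were among the 26200 genes listed in both deposited tables. The mice carried a double knockout of Tet2 and Tet3 with Krt14-Cre (DKO) or were labelled wild type (WT). Tet2 and Tet3 encode dioxygenases that oxidise methylated cytosine in DNA. Krt14-Cre drives recombination in cells of the basal epidermal lineage, so cells of other lineages in a sort are not its target. The 4 groups were DKO after 5-aza, WT after 5-aza, untreated DKO and untreated WT, with 2 libraries each. All cells were taken on postnatal day 4.5. The treated mice had received 50 µg of 5-aza, an inhibitor of DNA methyltransferases, by subcutaneous injection on postnatal day 2.5. The labels give neither strain, sort markers nor the number of animals per library.

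Hair matrix keratinocytes are the rapidly dividing cells around the dermal papilla at the base of the follicle, and their descendants build both the shaft and the inner sheath of the hair. The regulators studied here belong mainly to neighbouring compartments: the bulge, where quiescent stem cells reside, the outer root sheath and the early hair germ. In mouse skin, stem cells leaving these compartments feed the matrix, and most of the 7 genes are known to decline as cells commit to shaft or sheath fates.

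Library totals ranged from 39493929 to 58353167 reads after 5-aza and from 19528602 to 22837436 reads in untreated libraries, of which 38.4% to 42.4% and 55.8% to 62.0% lay in listed genes. The 2 tables were made separately and list different classes of reads, so levels after 5-aza and in untreated libraries are set side by side below without a test. Whether the libraries of a group came from separate animals is not stated, and p-values measure only the spread between these libraries. Tet3 was 6.54 and 5.99 FPKM in DKO against 10.4 and 11.5 FPKM in WT after 5-aza, and 6.91 and 7.31 FPKM in untreated DKO against 11.8 and 11.4 FPKM in untreated WT. Tet2 was 1.58 and 1.56 FPKM in DKO against 1.81 and 2.00 FPKM in WT after 5-aza, and 2.72 and 2.55 FPKM in untreated DKO against 3.23 and 3.28 FPKM in untreated WT. These gene-level values do not cover a deleted exon separately. All 14 matrix and hair shaft markers were detected in both tables, and their summed level was 326.8 to 359.8 FPKM in DKO and 291.5 to 321.2 FPKM in WT after 5-aza, and 374.8 to 436.6 FPKM in untreated DKO and 235.7 to 305.7 FPKM in untreated WT. The 10 dermal fibroblast markers summed to 99.9 to 144.6 FPKM in DKO and 70.2 to 148.9 FPKM in WT after 5-aza. In untreated libraries they summed to 1162 to 1382 FPKM in DKO, against 490.7 and 1295 FPKM in WT. No marker of another cell type that the tables list was at 0 in all libraries of a table, and Matn1 was not in the untreated table. Some were close to 0: after 5-aza, 7 of 9 immune markers averaged under 0.1 FPKM, and the 9 summed to 1.25 to 2.19 FPKM.

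The level of each gene is a FPKM value, that is, reads scaled by gene length and by the library total. The deposited length equals the exon lengths added up over all annotated transcripts of a gene for 97.7% of 32684 genes (GENCODE vM21, GRCm38), so exons shared by several transcripts are counted repeatedly. This lowers the FPKM of genes with many transcripts. Sox9, with 1 transcript, had a deposited length 0.999 times its merged exon length, whereas the deposited length was 1.43 times the merged length for Lgr6, 1.68 for Tcf7l1, 1.84 for Lhx2, 1.87 for Lgr5 and 3.39 for Trp63. Nfatc1 was an exception to the sum: its deposited length, 18574 bases, was 2.49 times the merged length but below the 28020 bases that its transcripts add up to. Ratios between libraries for 1 gene do not depend on this length, but the order of the genes does.

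Per merged exon length, Trp63 was the most abundant of the 7 genes in all 4 groups. It was 30.5 and 24.9 FPKM in DKO and 21.4 and 24.0 FPKM in WT after 5-aza, and 30.9 and 32.6 FPKM in untreated DKO and 25.5 and 36.8 FPKM in untreated WT. These libraries did not overlap those of the next gene in any group. Lgr6 and Lhx2 came next. Lgr6 was 21.3 and 14.6 FPKM in DKO and 12.8 and 17.7 FPKM in WT after 5-aza, and 14.8 and 14.97 FPKM in untreated DKO and 14.5 and 17.5 FPKM in untreated WT. Lhx2 was 13.03 and 9.33 FPKM in DKO and 7.585 and 9.02 FPKM in WT after 5-aza, and 17.0 and 18.4 FPKM in untreated DKO and 13.6 and 13.7 FPKM in untreated WT. Lhx2 thus stood above Lgr6 in untreated DKO and below it in the other 3 groups, each time without overlap. Sox9 and Tcf7l1 overlapped each other in untreated DKO and in both 5-aza groups; in untreated WT, Tcf7l1 was the higher, at 3.23 and 4.13 FPKM against 3.09 and 2.63 FPKM for Sox9. Lgr5 and Nfatc1 had the lowest means, although Lgr5 overlapped Sox9 and Tcf7l1 in WT after 5-aza. Nfatc1 lay below every other member in both 5-aza groups, at 0.373 and 0.597 FPKM in DKO and 0.301 and 0.213 FPKM in WT, whereas in untreated DKO it was 1.60 and 1.41 FPKM and overlapped Lgr5. With the deposited lengths Lgr6 had the highest mean in every group; its libraries stood above those of Trp63 in untreated DKO and in both 5-aza groups and overlapped them in untreated WT. All values below are FPKM as deposited.

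**Figure D1:**
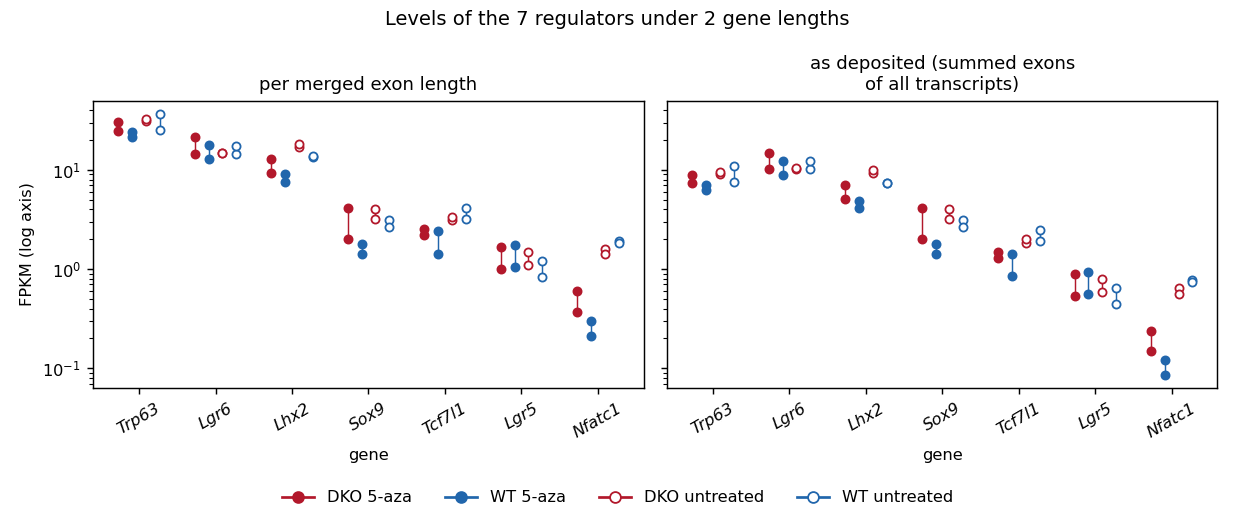
FPKM of the 7 genes on a log axis, per merged exon length (left) and as deposited (right); joined points are the 2 libraries of a group, filled after 5-aza and open in untreated mice, with DKO in red and WT in blue. Trp63 is highest in all groups per merged exon length, at 21.4 FPKM or more, while as deposited Lgr6 has the highest mean in each group.

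The first comparisons asked whether the 7 regulators differed between DKO and WT, after 5-aza and without treatment. After 5-aza, 0 of 7 passed the threshold of 0.05 on the adjusted p, where the background over all genes was 0% (0 of 16856, limma), while 0 of 7 and 8.94% of all genes had an unadjusted p under 0.05. In untreated libraries 0 of 7 passed, against a background of 0.00577% (1 of 17339 genes). Both DKO libraries lay above both WT libraries for 4 of 7 genes after 5-aza (Trp63, Sox9, Lhx2 and Nfatc1), where 28% of all tested genes did so, and both lay below for 0 of 7, against 11.6% of all genes. In untreated libraries both DKO libraries lay above both WT libraries for 2 of 7 (Sox9 and Lhx2), against 24.1% of all genes, and below for 1 of 7 (Nfatc1), against 19.3%. The median log2 difference of the 7 genes was 0.21 after 5-aza, beside 0.03 over all genes, and 0.04 in untreated libraries, beside 0.01. These medians, and those of the lists below, are of FPKM with no further scaling between libraries. With scaling to reads in listed genes the 5-aza differences were 0.53 for Sox9, 0.27 for Lhx2 and 0.17 for Trp63. They were 0.13 for Lgr6, 0.13 for Tcf7l1, 0.10 for Nfatc1 and -0.07 for Lgr5, beside a median of -0.01 over all genes. Of the same genes in the authors' deposited table, 0 of 7 had an adjusted p under 0.05 after 5-aza, where 0.708% of genes did, and 0 of 7 in untreated libraries, where 1.28% did. Intervals below are 95% confidence intervals of the difference of log2(FPKM + 1), DKO minus WT, and each ± is its standard error from limma.

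**Figure D2:**
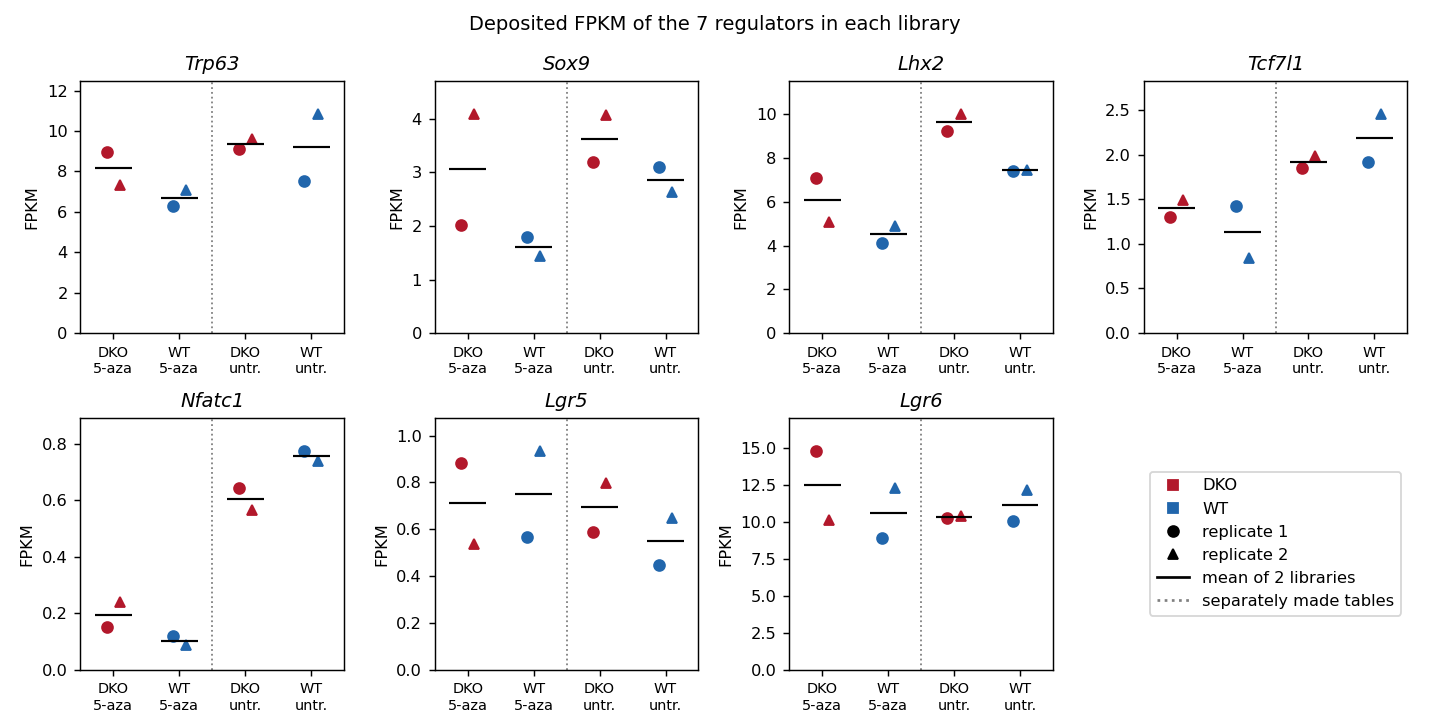
Deposited FPKM of each gene (vertical axes start at 0) in the 8 libraries, with DKO in red left of WT in blue, circles for replicate 1, triangles for replicate 2 and a bar at the mean of 2 libraries; the dotted line separates tables that were made separately. Lhx2 and Sox9 have both DKO libraries above both WT libraries on each side of the line. Nfatc1 has them above after 5-aza and below in untreated mice. Of 15699 genes, 15.4% were apart in the same direction on both sides and 4.04% in opposite directions.

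Transcription factors of epithelial progenitors come first, and the receptors after them. Trp63 (ENSMUSG00000022510, chromosome 16, 25683763 to 25892102, plus strand) encodes p63, required for stratified epithelia and for the basal state of keratinocytes. It was 8.98 and 7.33 FPKM in DKO against 6.30 and 7.08 FPKM in WT after 5-aza, a log2 difference of 0.25 ± 0.12 (interval -0.07 to 0.56, adjusted p = 0.638, limma). Both DKO libraries were the higher, and the difference was 0.12 without DKO replicate 1 and 0.38 without DKO replicate 2. In untreated libraries it was 9.12 and 9.61 FPKM in DKO against 7.53 and 10.8 FPKM in WT, so that the WT libraries lay on either side of DKO (0.04 ± 0.18, interval -0.41 to 0.50, adjusted p = 0.957, limma). Trp63 has 8 annotated transcripts, and gene-level values do not separate its long and short amino-terminal forms. With 4894 to 12172 reads per library it was the most deeply covered member.

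Sox9 (ENSMUSG00000000567, chromosome 11, 112782224 to 112787760, plus strand) encodes an HMG-box factor needed to form the outer root sheath and to keep bulge stem cells. After 5-aza it was 2.02 and 4.09 FPKM in DKO against 1.80 and 1.43 FPKM in WT. DKO replicate 2 held more than any other 5-aza library, and DKO replicate 1 lay close to WT replicate 1. The log2 difference was 0.59 ± 0.27 (interval -0.14 to 1.31, adjusted p = 0.622, limma) and was 0.21 without DKO replicate 2 and 0.96 without DKO replicate 1. In the authors' deposited table it was 0.86 with an adjusted p of 0.535. Untreated values were 3.19 and 4.06 FPKM in DKO against 3.09 and 2.63 FPKM in WT, apart by the small gap between replicates 1 (0.26 ± 0.13, interval -0.09 to 0.60, adjusted p = 0.540, limma). It was 0.12 without DKO replicate 2, 0.17 without WT replicate 2 and 0.39 without DKO replicate 1. This rested on 248 to 328 reads per library.

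Lhx2 (ENSMUSG00000000247, chromosome 2, 38339281 to 38369733, plus strand) encodes a LIM-homeodomain factor of the hair germ and the bulge. Its 2 untreated WT libraries were nearly equal: untreated values were 9.25 and 10.02 FPKM in DKO against 7.42 and 7.47 FPKM in WT. The log2 difference was 0.33 ± 0.09 (interval 0.10 to 0.56), the 1 of 7 untreated differences with an unadjusted p under 0.05, against 11.5% of all genes, and it missed the threshold after adjustment (adjusted p = 0.303, limma). In the authors' deposited table this difference was 0.34 with an adjusted p of 0.361. After 5-aza Lhx2 was 7.09 and 5.07 FPKM in DKO against 4.12 and 4.90 FPKM in WT, with a wide interval (0.35 ± 0.17, interval -0.10 to 0.80, adjusted p = 0.637, limma). That difference was 0.14 without DKO replicate 1 and 0.56 without DKO replicate 2. DKO was 1.35 times WT after 5-aza and 1.29 times WT in untreated libraries. An antisense gene, Gm13584, meets an exon of Lhx2, and the strand setting of the counting is not given, so reads of the pair could not be told apart.

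Tcf7l1 (ENSMUSG00000055799, chromosome 6, 72626378 to 72789254, minus strand) encodes TCF3, a TCF/LEF factor that represses Wnt target genes in bulge and outer root sheath cells. It was 1.30 and 1.496 FPKM in DKO against 1.43 and 0.845 FPKM in WT after 5-aza, with overlapping groups (0.18 ± 0.15, interval -0.23 to 0.59, adjusted p = 0.789, limma). That difference was -0.019 without WT replicate 2, 0.12 without DKO replicate 2 and 0.38 without WT replicate 1. Without treatment it was 1.85 and 1.99 FPKM in DKO against 1.92 and 2.46 FPKM in WT, again with overlap (-0.12 ± 0.12, interval -0.43 to 0.19, adjusted p = 0.761, limma). This one was -0.24 without WT replicate 1 and -0.000345 without WT replicate 2. The antisense gene Gm15401 meets an exon of Tcf7l1, with the same limit on strand.

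Nfatc1 (ENSMUSG00000033016, chromosome 18, 80606205 to 80713071, minus strand) encodes a calcineurin-dependent factor that holds bulge stem cells quiescent downstream of BMP signalling. It was the 1 member whose groups were apart in opposite directions. After 5-aza it was 0.150 and 0.240 FPKM in DKO against 0.121 and 0.0858 FPKM in WT, DKO being the higher (0.11 ± 0.05, interval -0.02 to 0.24, adjusted p = 0.600, limma). In untreated libraries it was 0.642 and 0.565 FPKM in DKO against 0.776 and 0.740 FPKM in WT, DKO being the lower (-0.13 ± 0.07, interval -0.31 to 0.05, adjusted p = 0.539, limma). The 5-aza difference ranged from 0.06 without DKO replicate 2 to 0.17 without DKO replicate 1, and the untreated one from -0.17 to -0.10 with 1 library left out. Adding 1 to each value before the logarithm compresses such low levels: the ratio of DKO to WT means was 1.89 after 5-aza and 0.797 in untreated libraries. Counts were 73 to 260 reads per library after 5-aza and 205 to 329 in untreated libraries.

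Nfatc1 is also known in endothelial cells. The summed levels of dermal and vascular markers were lower after 5-aza than in untreated libraries. So were the mean deposited FPKM of Nfatc1, Sox9, Lhx2, Trp63 and Tcf7l1 in both genotypes. These FPKM are divided by library totals that cover different classes of reads in the separately made tables. Listed genes held 38.4% to 42.4% of the total after 5-aza and 55.8% to 62.0% in untreated libraries. A lower FPKM after 5-aza therefore does not by itself show less RNA of a gene. The 9 endothelial and mural markers summed to 4.17 and 5.41 FPKM in DKO and 6.15 and 3.75 FPKM in WT after 5-aza, and to 58.8 and 57.4 FPKM in untreated DKO and 32.0 and 75.0 FPKM in untreated WT; 4 of them averaged under 0.1 FPKM after 5-aza and 2 in untreated libraries. In untreated WT, Nfatc1 was 0.776 FPKM in replicate 1, where that sum was 32.0, and 0.740 FPKM in replicate 2, where it was 75.0. The part of endothelial and mural cells in the Nfatc1 level was not tested. In bulk RNA, fewer cells of a type and less RNA per cell cannot be told apart.

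Lgr5 and Lgr6 encode related receptors for R-spondins, secreted proteins that strengthen Wnt signalling by removing ubiquitin ligases from Wnt receptors. Lgr5 (ENSMUSG00000020140, chromosome 10, 115450311 to 115587780, minus strand) marks the lower bulge and lower outer root sheath. Lgr6 (ENSMUSG00000042793, chromosome 1, 134983301 to 135105276, minus strand) marks stem cells of the upper follicle. After 5-aza Lgr5 was 0.885 and 0.539 FPKM in DKO against 0.566 and 0.936 FPKM in WT, with complete overlap (-0.03 ± 0.15, interval -0.44 to 0.38, adjusted p = 0.971, limma). Untreated Lgr5 was 0.590 and 0.799 FPKM in DKO against 0.448 and 0.648 FPKM in WT, also overlapping (0.13 ± 0.10, interval -0.14 to 0.40, adjusted p = 0.706, limma). Lgr6 lay near the top of all expressed genes by mean FPKM, above 94.96% of tested genes after 5-aza and 90.9% in untreated libraries. It was 14.9 and 10.2 FPKM in DKO against 8.90 and 12.3 FPKM in WT after 5-aza (0.21 ± 0.23, interval -0.41 to 0.83, adjusted p = 0.845, limma). Untreated Lgr6 was 10.3 and 10.4 FPKM in DKO against 10.1 and 12.2 FPKM in WT (-0.09 ± 0.12, interval -0.39 to 0.21, adjusted p = 0.826, limma). The groups overlapped in both tables, and the intervals hold changes of either sign. The third receptor of the family, Lgr4, was 10.1 and 7.78 FPKM in DKO against 5.996 and 8.07 FPKM in WT after 5-aza, and 13.3 and 14.0 FPKM in DKO against 12.3 and 12.6 FPKM in WT without treatment.

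**Figure D3:**
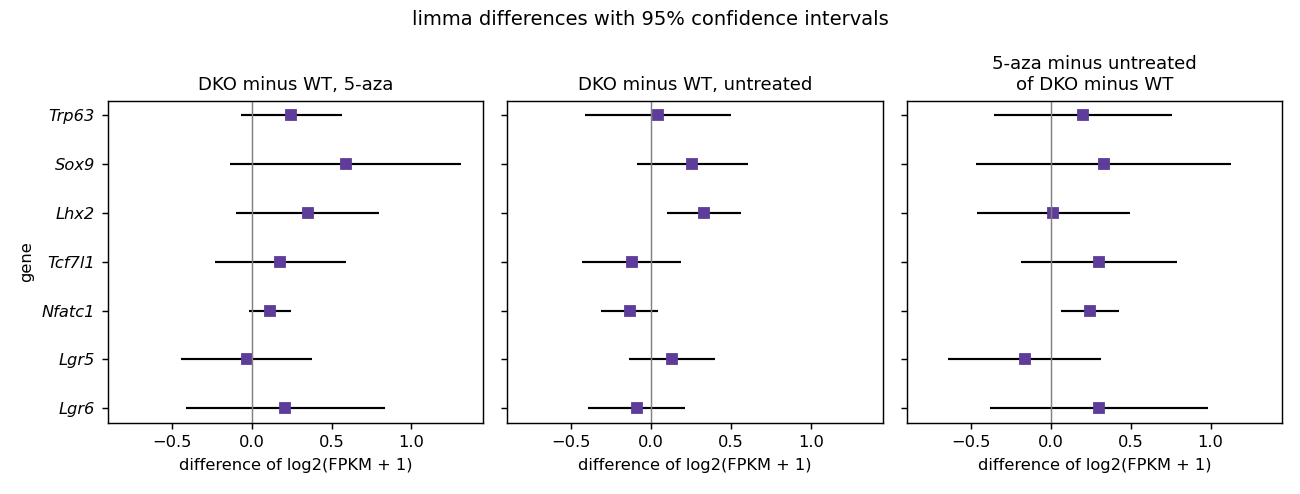
Differences of log2(FPKM + 1) with 95% confidence intervals from limma for the 7 genes: DKO minus WT after 5-aza (left), DKO minus WT untreated (middle) and the first difference minus the second (right). The interval excludes 0 for Lhx2 in untreated libraries and for Nfatc1 in the difference of differences, and neither passed after adjustment over all genes.

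The next comparison asked whether the difference between DKO and WT was itself changed by 5-aza, in a fit over 8 libraries. None of the 7 passed, with a background of 0.0191% (3 of 15699 genes, limma), while 5.61% of genes had an unadjusted p under 0.05. Nfatc1 had the interval farthest from 0, with a difference of 0.25 ± 0.08 (interval 0.07 to 0.43, adjusted p = 0.797, limma), and was the 1 of 7 with an unadjusted p under 0.05. The differences were 0.33 for Sox9, 0.30 for Lgr6, 0.30 for Tcf7l1, 0.20 for Trp63, 0.02 for Lhx2 and -0.16 for Lgr5, with adjusted p from 0.933 to 0.999 (limma). The Sox9 value was -0.045 without DKO replicate 2 after 5-aza. Since 1 is added before the logarithm, an equal ratio of DKO to WT gives a smaller difference where the level is lower.

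The libraries of a group differed from each other in an ordered way after 5-aza. Sox9, Nfatc1 and Tcf7l1 were higher in DKO replicate 2 than in DKO replicate 1 and higher in WT replicate 1 than in WT replicate 2. Trp63, Lhx2, Lgr6 and Lgr5 were lower in DKO replicate 2 and lower in WT replicate 1. All 7 of 7 thus placed DKO replicate 2 and WT replicate 1 on 1 side of their partner libraries, as did 66.5% of all 16856 tested genes; in untreated libraries 1 of 7 members and 51.2% of genes did. The 8 melanocyte markers summed to 143.7 FPKM in DKO replicate 2 and 30.1 FPKM in DKO replicate 1, and to 100.3 FPKM in WT replicate 1 and 22.6 FPKM in WT replicate 2. The 11 dermal papilla markers summed to 53.3 FPKM in DKO replicate 2 and 25.0 FPKM in DKO replicate 1, and to 67.4 FPKM in WT replicate 1 and 28.9 FPKM in WT replicate 2. Matrix and hair shaft markers lay the other way, at 326.8 FPKM in DKO replicate 2 and 359.8 FPKM in DKO replicate 1. They summed to 291.5 FPKM in WT replicate 1 and 321.2 FPKM in WT replicate 2. Inner root sheath markers were split, higher in DKO replicate 2 (430.9 against 341.2 FPKM) and lower in WT replicate 1 (451.9 against 477.2 FPKM). Sox10, a relative of Sox9 expressed in melanocytes and Schwann cells, was 1.05 FPKM in DKO replicate 2 and 0.232 FPKM in DKO replicate 1, and 0.686 FPKM in WT replicate 1 and 0.227 FPKM in WT replicate 2. The part of these cells in the members' levels was not tested.

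**Figure D4:**
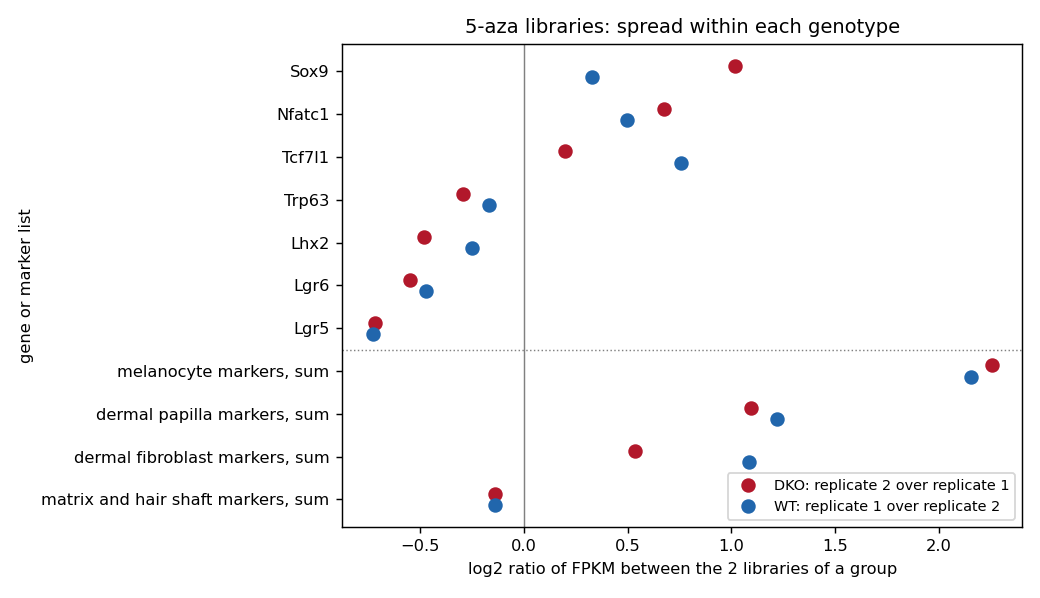
Log2 ratio of FPKM between the 2 libraries of each genotype after 5-aza, DKO replicate 2 over replicate 1 in red and WT replicate 1 over replicate 2 in blue, for the 7 genes and for the summed FPKM of 4 marker lists. Sox9, Nfatc1 and Tcf7l1 lie to the right with melanocyte and dermal markers. Trp63, Lhx2, Lgr6 and Lgr5 lie to the left, as does the sum of matrix and hair shaft markers.

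Across the 8 libraries, with log2(FPKM + 1) centred within each table, the highest correlation between members was Pearson r = 0.789 for Trp63 with Lgr6, followed by 0.705 for Lgr5 with Lgr6. The lowest was -0.700 for Lgr5 with Nfatc1. These describe 8 libraries that share group means and cell makeup, and the correlation of Sox9 with Trp63 was 0.0300. Among all genes tested in both tables, the closest to Trp63 were Psmc6 (r = 0.988) and 1810014B01Rik (0.984), to Sox9 2810459M11Rik (0.978) and Pex19 (0.968), and to Lhx2 Rel (0.984) and Zfp874b (0.984). Those closest to Tcf7l1 were Gm10052 (r = 0.986) and Furin (0.984), to Nfatc1 Fam241a (0.982) and Gm48065 (0.963), to Lgr5 4930578M01Rik (0.990) and Fastkd1 (0.967), and to Lgr6 Osgin1 (0.989) and Ints7 (0.988).

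Promoters from RefSeq's promoter set (GRCm38.p6) are shown for 3 members, Lhx2, Tcf7l1 and Lgr6. Sox9, Trp63 and Lgr5 had no entry in that set, and the promoter of Nfatc1 was left out and not examined. Cytosines followed by guanine (CpG) are the sites at which DNA methyltransferases and TET enzymes act. Methylation itself was not measured here. Each line gives 250 bases before to 50 bases after an annotated start, 5′ to 3′ on the gene's strand, with CpG in capitals. Lhx2 has 2 annotated starts.
Lhx2 start 1, plus strand, chr2:38339031-38339330: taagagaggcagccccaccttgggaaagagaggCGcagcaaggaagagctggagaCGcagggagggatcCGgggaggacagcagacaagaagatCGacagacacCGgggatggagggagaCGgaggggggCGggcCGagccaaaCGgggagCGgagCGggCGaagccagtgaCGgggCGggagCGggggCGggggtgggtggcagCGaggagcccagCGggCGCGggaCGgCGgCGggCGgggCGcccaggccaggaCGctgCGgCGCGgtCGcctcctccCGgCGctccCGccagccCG
Lhx2 start 2, plus strand, chr2:38351058-38351357: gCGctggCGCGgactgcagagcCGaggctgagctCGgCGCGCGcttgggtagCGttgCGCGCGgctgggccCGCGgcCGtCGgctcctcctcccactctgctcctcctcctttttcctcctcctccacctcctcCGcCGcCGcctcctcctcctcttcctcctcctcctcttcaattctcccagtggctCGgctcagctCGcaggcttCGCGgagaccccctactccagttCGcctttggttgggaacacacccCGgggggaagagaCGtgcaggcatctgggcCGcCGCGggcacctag
Tcf7l1, minus strand, chr6:72788996-72789295: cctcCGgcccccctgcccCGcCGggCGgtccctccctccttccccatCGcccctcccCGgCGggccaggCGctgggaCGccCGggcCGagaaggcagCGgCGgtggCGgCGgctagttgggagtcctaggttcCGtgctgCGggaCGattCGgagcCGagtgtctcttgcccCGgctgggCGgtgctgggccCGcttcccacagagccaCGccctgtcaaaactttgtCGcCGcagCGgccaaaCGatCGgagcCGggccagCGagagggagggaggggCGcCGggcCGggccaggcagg
Lgr6, minus strand, chr1:135105227-135105526: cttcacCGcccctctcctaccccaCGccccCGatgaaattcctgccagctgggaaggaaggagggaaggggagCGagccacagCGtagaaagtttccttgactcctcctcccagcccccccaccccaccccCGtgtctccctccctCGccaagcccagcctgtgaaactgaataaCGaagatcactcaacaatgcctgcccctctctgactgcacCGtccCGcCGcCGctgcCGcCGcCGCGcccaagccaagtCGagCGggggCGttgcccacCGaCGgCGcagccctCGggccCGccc
The windows hold 34 CpG at start 1 of Lhx2, 29 at start 2, 34 in Tcf7l1 and 24 in Lgr6, beside a median of 7 over 32851 such promoters. Of all promoters, 92.3% hold fewer CpG than start 1 of Lhx2 or Tcf7l1, 87.1% fewer than start 2 of Lhx2 and 80.0% fewer than Lgr6. On either strand, the exact string CTTTGA, a core bound by TCF/LEF factors, was in none of the 4 windows and in 16.0% of all promoters. The exact string ACAATGG, a form of the site bound by SOX factors, was in none of the 4 and in 3.66%. Other forms of either site were not sought, and the Lgr6 window holds acaatgc, which differs from the SOX string in its last base.

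Genes that work with the 7 regulators were examined as 6 lists, of which 0 members passed over all genes in either comparison (limma). The p63 list held 18 genes that p63 is known to activate in basal keratinocytes. After 5-aza 17 of 18 differences were positive, with a median of 0.34 beside 0.03 over all genes, and both DKO libraries lay above both WT libraries for 16 of 18, against 28% of all genes. In untreated libraries 13 of 18 were positive, with a median of 0.15 beside 0.01, and 10 of 18 had both DKO libraries above, against 24.1%. Medians and counts of this list and of those below were not recomputed with further scaling between libraries. Scaling to reads in listed genes lowered the 5-aza difference of Trp63 from 0.25 to 0.17. The median over all genes went from 0.03 to -0.01 with it. Krt14, the basal keratin whose promoter drives the Cre, was 71.1 and 95.2 FPKM in DKO against 43.0 and 29.5 FPKM in WT after 5-aza, and 174.6 and 209.1 FPKM in DKO against 71.9 and 84.7 FPKM in WT without treatment (adjusted p = 0.388 and 0.189, limma). Pkp1, a desmosomal plaque protein, was 20.5 and 20.1 FPKM in DKO against 13.7 and 14.4 FPKM in WT after 5-aza, and 27.8 and 35.5 FPKM in DKO against 23.5 and 20.3 FPKM in WT without treatment. Lamb3, a laminin chain of the basement membrane, was 1.07 and 1.18 FPKM in DKO against 0.580 and 0.401 FPKM in WT after 5-aza. Trp63 itself was 1.22 times WT in DKO after 5-aza and 1.02 times WT in untreated DKO. In the authors' deposited table Krt14, Krt5, Itgb4, Lamb3 and Pkp1 had an adjusted p under 0.05 after 5-aza, and Krt14, Krt5, Perp, Pkp1 and Ripk4 in untreated libraries, all higher in DKO. Markers of interfollicular differentiation, 8 genes, summed to 8.40 and 16.5 FPKM in DKO against 5.42 and 3.74 FPKM in WT after 5-aza, and to 167.6 and 291.4 FPKM in DKO against 302.9 and 112.1 FPKM in WT without treatment; their part in these levels was not tested.

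Bulge and outer root sheath genes other than the 7 gave 22 positive of 26 tested differences after 5-aza (median 0.26), where 10585 of 16856 genes were positive, and 23 of 29 in untreated libraries (median 0.17), where 9330 of 17339 were. Both DKO libraries lay above both WT libraries for 14 of 26 and below for 3 of 26 after 5-aza, beside 28% and 11.6% of all genes, and above for 9 of 29 and below for 5 of 29 without treatment, beside 24.1% and 19.3%. Krt15, a keratin of the bulge, was 44.5 and 52.3 FPKM in untreated DKO against 19.95 and 17.1 FPKM in untreated WT, a log2 difference of 1.34 ± 0.15 that missed the threshold (adjusted p = 0.109, limma). Krt6a, a keratin of the companion layer, was 4.04 and 4.81 FPKM in untreated DKO against 0.992 and 1.449 FPKM in untreated WT (adjusted p = 0.117, limma). Cxcl14, a chemokine of epithelium, was 41.0 and 38.7 FPKM in DKO against 26.3 and 24.4 FPKM in WT after 5-aza, and 41.8 and 38.7 FPKM in DKO against 21.6 and 28.03 FPKM in WT without treatment. Runx1, a regulator of stem cell activation, was 2.26 and 2.12 FPKM in DKO against 1.37 and 1.503 FPKM in WT after 5-aza. Krt6b, another keratin of that kind, was 0.546 and 1.47 FPKM in untreated DKO against 0.0590 and 0.0592 FPKM in untreated WT. In untreated libraries Krt15 and Krt6a had larger log2 differences than any of the 7 regulators, of which the largest was 0.33. In the authors' deposited table Cxcl14, Krt17 and Runx1 were higher in DKO and Nfia lower after 5-aza at an adjusted p under 0.05, and Cxcl14, Krt15, Krt6a and Krt6b were higher and Nfib and Vdr lower in untreated DKO.

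**Figure D5:**
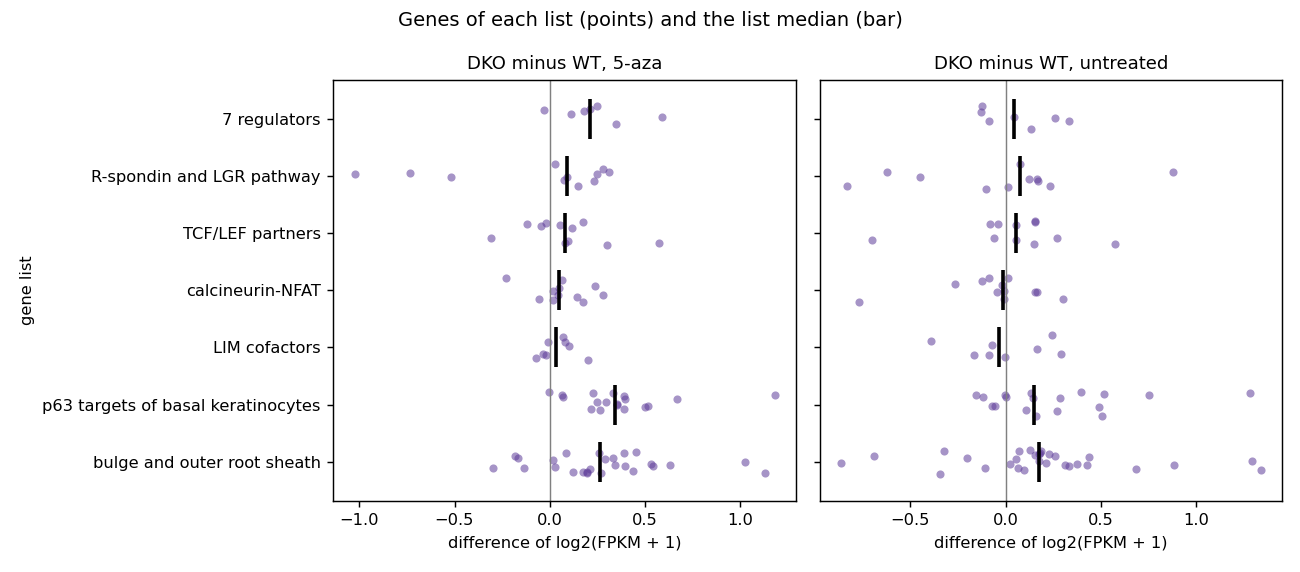
Differences of log2(FPKM + 1), DKO minus WT, after 5-aza (left) and untreated (right); each point is a gene of the list named at the left and the bar is the list's median. The median of the p63 list is 0.34 after 5-aza and 0.15 untreated, and that of the 7 regulators is 0.21 and 0.04.

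Of 11 genes of the R-spondin and LGR pathway, 4 had both DKO libraries above both WT libraries and 1 had them below after 5-aza, beside 28% and 11.6% of all genes, and 5 and 3 in untreated libraries, beside 24.1% and 19.3%. Rspo3 was 1.58 and 3.16 FPKM in DKO against 8.35 and 3.77 FPKM in WT after 5-aza, and 10.9 and 9.82 FPKM in DKO against 21.5 and 17.0 FPKM in WT without treatment (adjusted p = 0.575 and 0.185, limma). Rspo1 was 12.6 and 11.7 FPKM in untreated DKO against 22.6 and 16.4 FPKM in untreated WT, and Rspo2 was 4.73 and 4.32 FPKM in untreated DKO against 7.64 and 5.57 FPKM in untreated WT. The fourth ligand, Rspo4, lay the other way, at 27.4 and 27.8 FPKM in untreated DKO against 9.57 and 21.9 FPKM in untreated WT, and overlapped after 5-aza, at 4.58 and 9.55 FPKM in DKO against 7.23 and 4.19 FPKM in WT. Rspo1, Rspo2 and Rspo3 are also made in the dermal papilla, whose 11 markers summed to 177.4 and 165.9 FPKM in untreated DKO against 245.5 and 217.2 FPKM in untreated WT, with 11 of 11 differences negative, Rspo3 being on that list too. In the authors' deposited table Rspo1 and Rspo3 were lower in untreated DKO at an adjusted p under 0.05. The part of dermal papilla RNA in the ligand levels was not tested. Znrf3, a ubiquitin ligase that LGR receptors help to clear, was 9.04 and 7.76 FPKM in DKO against 6.36 and 7.09 FPKM in WT after 5-aza, and 10.6 and 11.5 FPKM in DKO against 9.42 and 9.02 FPKM in WT without treatment.

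Among partners of TCF/LEF factors, 4 of 11 genes had both DKO libraries above both WT libraries after 5-aza and 5 of 11 in untreated libraries, beside 28% and 24.1% of all genes, with 1 of 11 below in each, beside 11.6% and 19.3%. The relatives of Tcf7l1 were Lef1, at 9.20 and 9.94 FPKM in DKO and 9.40 and 8.39 FPKM in WT after 5-aza and 8.95 and 8.49 FPKM in DKO and 7.57 and 8.01 FPKM in WT without treatment, and Tcf7, at 6.56 and 6.57 FPKM in DKO and 7.36 and 7.07 FPKM in WT after 5-aza. Tle4, a co-repressor recruited by TCF factors, was 3.20 and 3.29 FPKM in DKO against 2.04 and 1.68 FPKM in WT after 5-aza, and 5.38 and 6.05 FPKM in DKO against 3.36 and 3.67 FPKM in WT without treatment. Its log2 differences were 0.57 ± 0.09 and 0.57 ± 0.10 and missed the threshold after adjustment (adjusted p = 0.341 and 0.189, limma). In the authors' deposited table Tle4 passed in both comparisons, with log2 differences of 0.74 and 0.67 and adjusted p of 0.000787 and 0.00153. Tle2 was 1.97 and 1.47 FPKM in untreated DKO against 4.18 and 2.74 FPKM in untreated WT.

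Calcineurin and NFAT genes had 3 of 11 tested genes with both DKO libraries above and 0 of 11 below after 5-aza, beside 28% and 11.6% of all genes, and 3 of 12 above and 3 of 12 below in untreated libraries, beside 24.1% and 19.3%. Rcan1, a calcineurin regulator induced by NFAT activity, was 1.67 and 1.36 FPKM in DKO against 1.02 and 1.24 FPKM in WT after 5-aza, and 2.68 and 2.87 FPKM in DKO against 2.08 and 2.04 FPKM in WT without treatment (adjusted p = 0.600 and 0.335, limma). Prlr, the prolactin receptor, was 1.82 and 1.66 FPKM in untreated DKO against 4.62 and 2.88 FPKM in untreated WT. Of the other NFAT genes, Nfatc3 was 2.81 and 2.02 FPKM in DKO and 2.03 and 2.47 FPKM in WT after 5-aza, Nfatc4 0.591 and 1.04 FPKM in DKO and 1.02 and 0.492 FPKM in WT, and Nfatc2 was at most 0.116 FPKM in all 8 libraries. Cofactors of LIM-homeodomain proteins such as Lhx2 had 1 of 8 tested genes with both DKO libraries above and 0 below after 5-aza, beside the same 28% and 11.6%, and 2 above and 3 below in untreated libraries, beside 24.1% and 19.3%. Ldb1, the adaptor that bridges such factors, was 9.77 and 9.43 FPKM in DKO against 8.36 and 8.06 FPKM in WT after 5-aza, and 12.7 and 13.3 FPKM in DKO against 11.04 and 10.6 FPKM in WT without treatment (adjusted p = 0.512 and 0.424, limma).

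Relatives of the other members showed the family context of each. Sox4 and Sox21 had higher deposited FPKM than Sox9, with 33.7 and 32.6 FPKM in DKO and 33.5 and 28.5 FPKM in WT after 5-aza for Sox4, and 11.1 and 13.8 FPKM in DKO and 12.2 and 8.55 FPKM in WT for Sox21. Trp53 was 7.41 and 6.71 FPKM in DKO and 7.38 and 6.90 FPKM in WT after 5-aza, and Trp73 0.922 and 0.843 FPKM in DKO and 0.962 and 0.723 FPKM in WT. Tcf7l2 was 0.489 and 0.421 FPKM in DKO and 0.440 and 0.567 FPKM in WT after 5-aza. Lhx9, the closest relative of Lhx2, was at 0.00395 FPKM or less in all 8 libraries.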

How the data were processed

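RNA was sequenced in 8 libraries of sorted hair matrix keratinocytes, 2 for each of 4 groups. The labels' protocols name a messenger RNA kit and a total RNA kit and tie neither to a group. Builds GRCm38 and mm10 and the tools Trim Galore, STAR, HTSeq and DESeq2 are named, with no version, per the submitters' processing notes; the strand setting is not given in the sources used here. Each comparison has its own table. The authors deposited FPKM per library, scaled by gene length and library total; multiplied by the length, they give whole reads (tolerance 0.001) for all genes. The authors' mean over libraries, of reads divided by size factors, is a deposited signal. The deposited fold changes and standard errors are log2 values, WT over DKO; signs are turned to DKO over WT in the text. The deposited statistic is a score, and the deposited p-value columns, raw and adjusted, hold the authors' DESeq2 output. Gene length is in bases. Entries that name no gene were left out; those without a feature held 37.6% of the mean reads in the 5-aza table and 36.5% in the untreated one.

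Tests used log2(FPKM + 1) in limma 3.58.1 (R 4.3.3) with a variance trend, two-sided, adjusted by Benjamini-Hochberg over all genes tested, with a threshold of 0.05. A gene was kept with 10 reads, scaled to the median library, in 2 or more libraries and 15 reads overall; all 7 members passed in both tables. The fits were run on simulated data with known changes. For DKO against WT those changes were larger than any member's and lay in well-covered genes. Such a run does not show how well small differences or low counts are detected. The members, lists and tests were chosen with earlier results of these data known. In each list, up to 4 genes of smallest p in either comparison were named, and for each member the 2 genes of highest correlation. List genes under 0.05 in the authors' deposited tables were named after their values were seen. Promoter sequences are RefSeq's (GRCm38.p6); annotation is GENCODE vM21. Alternatives covered the pseudocount, filter, trend, scaling, voom, the replicate number as a block, all 8 libraries in 1 fit and each library left out. FPKM per merged exon length and a crossed pairing were added after seeing the data. Depth and 2 libraries per group limit precision.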

Additional observations from a re-analysis of the deposited data

Results flagged for a closer look

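Nfatc1 differed in opposite directions in the 2 comparisons. Both DKO libraries lay above both WT libraries after 5-aza (0.150 and 0.240 against 0.121 and 0.0858 FPKM) and below them without treatment (0.642 and 0.565 against 0.776 and 0.740 FPKM). The difference of the differences was 0.25 on the log2(FPKM + 1) scale and missed the threshold after adjustment (adjusted p = 0.797, limma). With a pseudocount of 0.1 it was 0.81, and with voom on recovered reads 1.21. Of 15699 genes tested in both tables, 4.04% had groups apart in opposite directions and 15.4% in the same direction. Leaving out each of the 8 libraries in turn gave 0.19 to 0.30.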

How the results depend on the processing

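Of 322 values of the 7 genes under the alternatives, 307 kept their direction and their side of the threshold, 15 changed sign and 0 passed the threshold (lowest adjusted p = 0.131, limma). Most sign changes came from leaving out 1 library. After 5-aza, leave-one-out ranges were -0.18 to 0.12 for Lgr5, -0.041 to 0.46 for Lgr6 and -0.019 to 0.38 for Tcf7l1; untreated, -0.19 to 0.28 for Trp63 and -0.21 to 0.033 for Lgr6. For the difference of differences they were -0.19 to 0.22 for Lhx2, -0.0335 to 0.44 for Trp63 and -0.045 to 0.71 for Sox9, and Lhx2 was -0.025 with scaling to reads in listed genes, -0.016 with median-ratio scaling and -0.015 with voom. After 5-aza the median of all genes went from 0.026 to -0.011 with scaling to reads in listed genes and -0.002 with median-ratio scaling. Without treatment it went from 0.011 to -0.008 and -0.002. Scaling to reads in listed genes lowered every member's 5-aza difference, for Lgr6 from 0.21 to 0.13 and for Trp63 from 0.25 to 0.17.

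The number of genes called over the whole table moved more. After 5-aza it was 0, 1 with all 8 libraries in 1 fit, and 0 with each library left out. Without treatment it was 1, and 8 with a pseudocount of 0.1, 0 with no filter, a filter of 0.1 FPKM or no variance trend, 77 with voom, 111 with all 8 libraries in 1 fit, 37 per merged exon length and 0 with any library left out. The difference of differences gave 3, and 1 with a pseudocount of 0.1, a filter of 0.1 FPKM, no variance trend or voom, and 0 to 2 with 1 library left out (0 without DKO replicate 1 or either WT replicate after 5-aza). The split of genes at p under 0.05, unadjusted, was 1120 higher to 387 lower in DKO after 5-aza, and 741 to 707 with scaling to reads in listed genes. The labels do not say what a shared replicate number stands for, and in untreated mice Xist was high and Ddx3y low in replicate 1 of both genotypes and the reverse in replicate 2. Over all genes, deviations of same-numbered libraries correlated at r = -0.589 after 5-aza and 0.0317 without treatment. With the replicate number as a block, 0 genes passed after 5-aza, 13 without treatment and 0 in the difference of differences; 0 of the 7 members passed. The crossed pairing of replicate numbers after 5-aza, added after seeing the data, called 91 genes. The causes were not tested. For Nfatc1, counts down to 73 reads limit what can be seen.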

Other observations

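Xist, the RNA of the inactive X chromosome, was 4.598 and 3.65 FPKM in DKO against 16.9 and 23.1 FPKM in WT after 5-aza, and 74.4 and 1.19 FPKM in untreated DKO against 82.1 and 0.327 FPKM in untreated WT. Ddx3y, a Y-linked gene, stood at 2.08 and 2.00 FPKM in DKO against 1.24 and 0.917 FPKM in WT after 5-aza, and 0.0755 and 2.90 FPKM in untreated DKO against 0.0155 and 3.502 FPKM in untreated WT. After 5-aza both genes differed between DKO and WT without overlap, so whatever they reflect cannot be told apart from genotype. In untreated mice, replicate 1 of DKO and of WT had high Xist and low Ddx3y, and replicate 2 of each had the reverse, so this split fell alike on both genotypes and coincided with the replicate number. Xist and Ddx3y entered no fit as a term.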
